A study of Mus musculus with 6 samples.

Results

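The genes described here are 10 purinergic receptors and extracellular nucleotide enzymes, P2rx4, P2rx7, P2ry2, P2ry6, P2ry12, P2ry14, Adora2a, Adora2b, Entpd1 and Nt5e. They were chosen by name, matched to the gene symbols of the deposited tables, and all 10 were found among 56092 symbols. RNA was sequenced from the mouse macrophage line RAW264.7 after stable transduction by lentivirus with a Trem2-directed shRNA (shTrem2) or with a control construct (shNC). The 3 libraries of either group came from cells polarized with IL-4 (20 ng/mL, 24 hours) and then kept for 24 hours with debris of TCMK-1 cells, a mouse renal tubular epithelial line. Every library therefore shares the IL-4 and the debris, and none of the 6 shows these genes without them. The sources used here do not name the shRNA behind the shTrem2 libraries and do not say whether replicates were separate cultures, so the p-values measure only the spread between these libraries.

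Dying cells release ATP and UTP, and their breakdown products, which macrophages sense as "find-me" signals. P2X receptors are cation channels that ATP opens, whereas P2Y receptors signal through G proteins after binding ATP, ADP, UTP, UDP or UDP-sugars. At the cell surface Entpd1 (CD39) removes phosphates from ATP and ADP to give AMP, Nt5e (CD73) turns AMP into adenosine, and adenosine then acts on its own G protein-coupled receptors, of which Adora2a and Adora2b raise cAMP.

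Counts assigned to named genes ranged from 15876119 to 18088388 per library in shNC and from 19358125 to 19655165 in shTrem2. Expression is given in CPM, which scales each library to the same total, and changes as log2 fold changes of shTrem2 relative to shNC from edgeR's quasi-likelihood test across 13528 genes, with Benjamini-Hochberg adjusted p. The study's criteria for a differentially expressed gene (DEG) were an adjusted p under 0.05 and a change over 1.5-fold. A library with 3 counts or fewer, which is 0.153 to 0.189 CPM depending on the library, was taken as not showing a gene. Trem2 averaged 128 ± 14.9 CPM over the shNC libraries and 68.5 ± 9.32 CPM over the shTrem2 libraries (SD, n = 3 each), and its log2 fold change was -0.87 (SE 0.0939, adjusted p 3.39e-06, edgeR). On the deposited FPKM values, which are also scaled for transcript length, Trem2 went from 178 ± 28.5 to 41.7 ± 4.14, and an effective length offset in edgeR gave -2.07, so the size of the knockdown depends on how length is treated. All 9 macrophage markers were tested and abundant, with a summed level of 5660 to 6615 CPM in shNC and 10567 to 11934 CPM in shTrem2. Most of that rise was in Lyz2, and 2 of the 9 fell, Itgam by 0.78 (adjusted p 8.43e-09, edgeR) and Adgre1 by 0.56 (adjusted p 3.54e-05). Arg1, the gene that names the cells in the study's title, had 1 to 3 counts in every library, and 4 other IL-4 response genes (Retnla, Chil3, Ccl17 and Ccl24) were likewise not detected. The 3 tested genes of that list of 8 were DEGs, beside 21.8% of all tested genes. Mrc1 rose (2.76, adjusted p 1.22e-05, edgeR), while Ccl22 (-2.34, adjusted p 0.00284) and Il4ra (-1.37, adjusted p 3.24e-05) fell. Low counts limit Mrc1 in shNC (5, 14 and 6) and Ccl22 in shTrem2 (7, 1 and 2). Of 14 tubular epithelial markers, 12 were not detected, including Epcam, Krt8, Krt18, Cdh1 and Umod. Lrp2 had 0.102 to 0.442 CPM, and Aqp1, which is not restricted to tubules, stood at 0.276 to 0.756 CPM in shNC and 1.95 to 2.58 CPM in shTrem2. The part of these marker levels in the results below was not tested. In these bulk libraries, fewer cells that express a gene and less of its RNA per cell cannot be told apart.

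Of the 10 genes, 7 were expressed highly enough to be tested, while P2ry12, P2ry14 and Nt5e were not detected in either group. Entpd1 rose and Adora2b fell past both criteria, so 2 genes were DEGs, beside 21.8% of all tested genes (9.46% higher and 12.4% lower). At the adjusted p alone 5 of the 7 passed, P2ry6 and Entpd1 upwards and P2rx4, P2rx7 and Adora2b downwards, beside 57.4% of all tested genes. The same 5 genes had groups that did not overlap in CPM, beside 63.5% of all tested genes. The median log2 fold change of the 7 genes was -0.32, and that of all tested genes was -2.84e-05. Shares of this size in the whole table mean that a call on 1 of these genes is not unusual here. The summed level of the 10 genes was 129 to 136 CPM in shNC and 121 to 123 CPM in shTrem2.

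**Figure D1:**
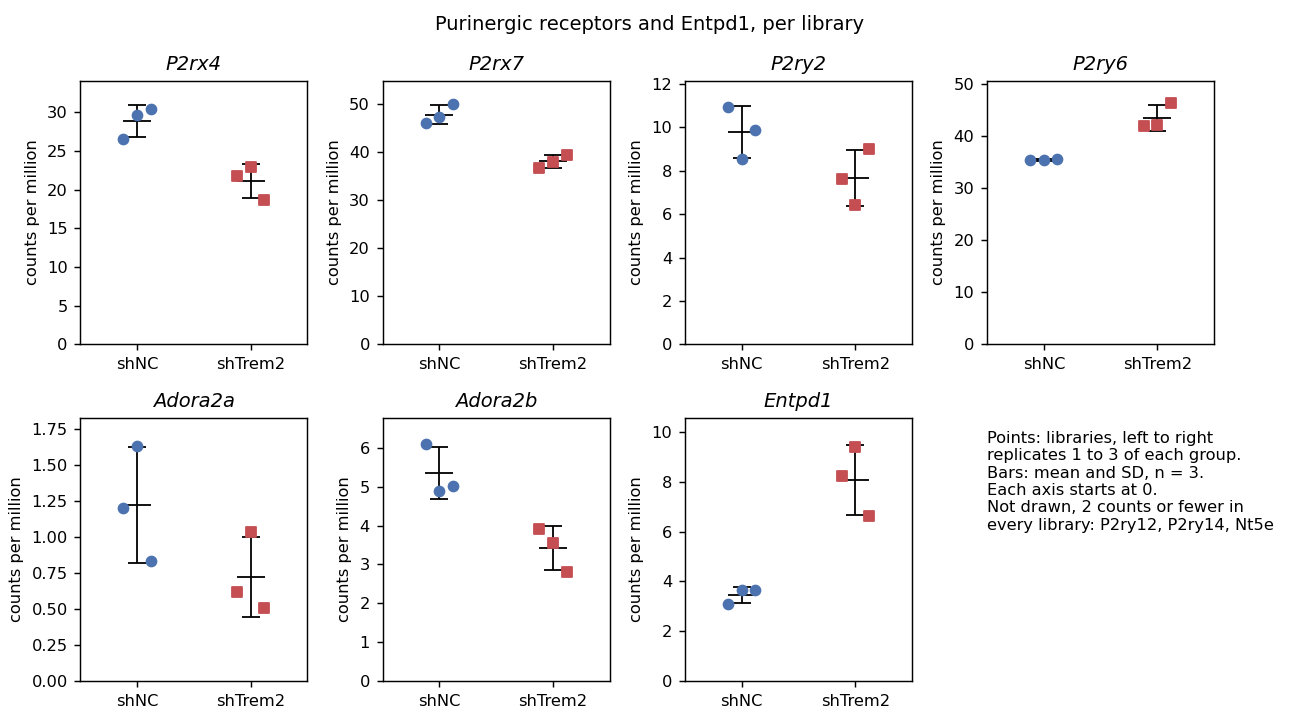
Expression of the 7 detected genes in CPM on linear axes that start at 0, with 1 point per library (circles shNC, squares shTrem2) and bars for the mean and SD of 3 libraries. Entpd1 separates most widely in relative terms, at 3.09 to 3.65 CPM in shNC against 6.61 to 9.40 CPM in shTrem2, while the groups overlap for P2ry2 and Adora2a.

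Among the ATP-gated channels, P2rx7, the receptor whose prolonged opening drives potassium loss and inflammasome activation, had 731, 840 and 905 counts in the shNC libraries 1 to 3, or 47.8 ± 2.05 CPM, and 714, 735 and 775 counts in the shTrem2 libraries 1 to 3, or 38.0 ± 1.37 CPM. Once scaled to the library totals, no shTrem2 value reached the lowest shNC value. The log2 fold change was -0.30 (SE 0.0622, adjusted p 0.00109, edgeR), a 1.23-fold fall that stayed under the study's fold criterion. P2rx4, a channel that opens at lower ATP concentrations and is found largely in lysosomes, was measured at 26.6, 29.7 and 30.4 CPM in shNC and at 21.8, 23.0 and 18.7 CPM in shTrem2. Its groups did not overlap either, and it fell by 0.42 on the log2 scale (SE 0.0898, adjusted p 0.00130, edgeR), or 1.33-fold. The 2 genes are neighbours on chromosome 5. P2rx4 also overlaps Camkk2, a kinase gene, which had a log2 fold change of -0.11 (adjusted p 0.0695), and on its other side lies Anapc5, a subunit of the anaphase-promoting complex, which rose by 1.05 (adjusted p 1.27e-09).

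The deposited counts were split between transcripts, and the split could be assigned to annotated transcripts by length. Counts of P2rx4 were divided among 8 transcripts, of which 2 protein-coding ones held most. P2rx4-202 (1887 nt) averaged 10.7 ± 1.21 CPM over shNC and 6.31 ± 0.236 CPM over shTrem2, a log2 ratio of -0.76, with no overlap between groups. P2rx4-201 (2702 nt) stood at 15.6 ± 2.31 CPM and 12.6 ± 2.30 CPM, a log2 ratio of -0.30, with overlapping groups. The lower P2rx4 level was thus seen more plainly in the shorter transcript, and whether the 2 ratios differ was not tested. P2rx7 came mainly from P2rx7-203 (4936 nt), with 77.7% of its counts in shNC and 79.5% in shTrem2, and from P2rx7-205, which is annotated as a retained-intron transcript, with 15.1% and 15.4%. Their log2 ratios, -0.30 and -0.31, lay close to that of the gene.

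Among the P2Y receptors, P2ry6, the receptor for UDP that is known for its role in phagocytosis by microglia, was the 1 receptor of the set that rose. It was measured at 35.3, 35.3 and 35.7 CPM in shNC and at 42.0, 42.0 and 46.2 CPM in shTrem2. The shNC libraries were nearly equal, and each shTrem2 library lay above all of them. The log2 fold change was 0.33 (SE 0.0631, adjusted p 5.52e-04, edgeR), which is 1.25-fold and under the fold criterion. Nearly all of its counts, 98.9% in shNC and 98.1% in shTrem2, belonged to P2ry6-201.

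P2ry2, the receptor for ATP and UTP through which phagocytes are drawn towards apoptotic cells, is the neighbour of P2ry6 on chromosome 7. It was measured at 11.0, 8.55 and 9.90 CPM in shNC and at 7.61, 6.41 and 9.01 CPM in shTrem2. The highest shTrem2 library lay above the lowest shNC library. The log2 fold change of -0.32 did not pass the test (SE 0.150, 95% interval -0.64 to 0.01, adjusted p 0.0872, edgeR). Without shTrem2 replicate 3 the value was -0.46 and the adjusted p was 0.0216, the 1 setting of 18 others that passed. With the effective length offset and all libraries, the value was -0.17 (adjusted p 0.430, edgeR).

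The other P2Y genes of the set were not detected. P2ry12, an ADP receptor that marks microglia, had 2 counts in shTrem2 replicate 1 and 0 in the other libraries. P2ry14, the receptor for UDP-glucose, had 0 counts in all 6 libraries. Both lie within Med12l on chromosome 3, near P2ry13 and Gpr171, and Med12l, P2ry13 and Gpr171 also had 0 counts in all 6 libraries. A level at or under the chosen floor of 3 counts, 0.153 to 0.189 CPM depending on the library, was not counted as detected.

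Entpd1 was the gene of the set with the largest change. Its level in shNC was 3.09, 3.65 and 3.65 CPM (49, 65 and 66 counts), and in shTrem2 it was 8.22, 9.40 and 6.61 CPM (160, 182 and 130 counts). The lowest shTrem2 library was above the highest shNC library. The log2 fold change was 1.25 (SE 0.174, 95% interval 0.88 to 1.63, adjusted p 3.49e-05, edgeR), or 2.38-fold. With an effective length offset in edgeR, Entpd1 rose by 1.00 (adjusted p 0.00144), so the size depends on how length is treated. The effective length of Entpd1, relative to its mean over the libraries, was 0.684 in shNC replicate 1 and 1.00 to 1.17 in the others. The offset was not fitted without that library. The enzyme that would act on its product, Nt5e, had 2 counts in shNC replicate 2, 2 counts in shTrem2 replicate 3 and 0 in the other libraries. Snx14, the sorting nexin gene beside Nt5e on chromosome 9, was expressed, with means of 67.4 CPM (shNC) and 57.6 CPM (shTrem2).

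Entpd1 has 2 RefSeq starts on chromosome 19. The upstream one lies next to the start of Tctn3, a ciliary transition zone gene, which rose by 0.46 (adjusted p 0.00545, edgeR). Counts of Entpd1-201 (4221 nt) were 0.467, 2.91 and 3.01 CPM in shNC and 6.93, 8.41 and 5.02 CPM in shTrem2. Counts of Entpd1-204 (2409 nt) were 2.37, 0.576 and 0.635 CPM in shNC and 1.23, 0.993 and 1.41 CPM in shTrem2. Transcripts were assigned by length alone, and which start each of them uses was not determined. Most counts thus belonged to Entpd1-201 in every library but shNC replicate 1. There the split was the other way round, although the gene's total was close to that of its group. The log2 ratio of group means was 1.67 for Entpd1-201 and 0.02 for Entpd1-204, and Entpd1-201 held 63.1% of the gene's counts in shNC and 84.0% in shTrem2. Without shNC replicate 1 the ratios were 1.20 and 1.00 and the shares 81.1% and 84.0%, so the contrast between the transcripts rests on that library. A split between transcripts is an estimate and no test was made on it.

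**Figure D2:**
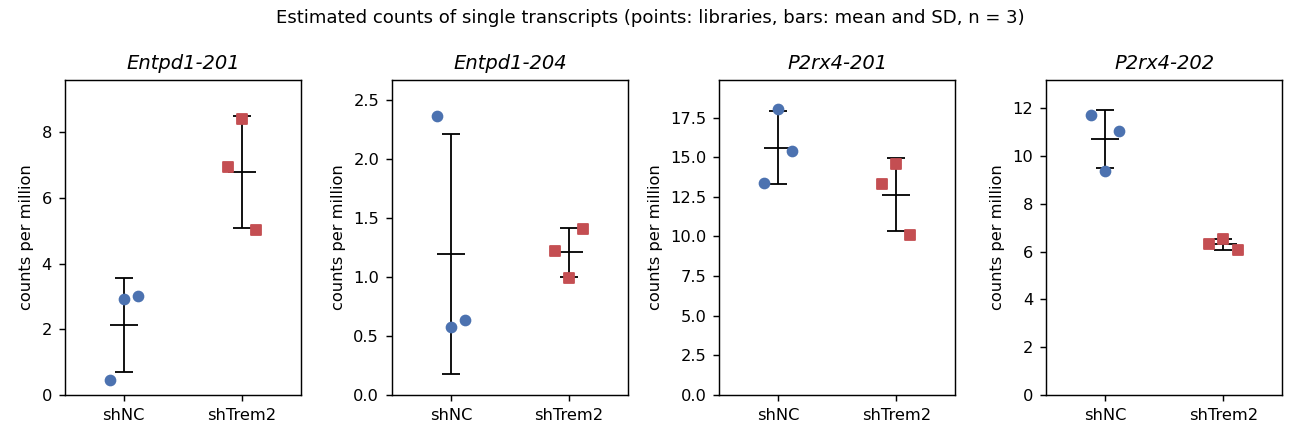
Estimated counts of single transcripts of Entpd1 and P2rx4 in CPM on linear axes that start at 0, with 1 point per library and bars for the mean and SD of 3 libraries. Entpd1-201 is higher in each shTrem2 library (5.02 to 8.41 CPM) than in each shNC library (0.467 to 3.01 CPM), Entpd1-204 overlaps between groups, and of the P2rx4 transcripts P2rx4-202 is the one with separate groups.

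For the 2 DEGs, the 250 bases before the downstream Entpd1 start and before the Adora2b start are shown from RefSeq on GRCm38.p6. The window of the upstream Entpd1 start is not shown. They lie at chr19:40659520-40659769 and chr11:62248734-62248983, both on the plus strand, whereas the submitters' processing notes name GRCm39, and no coordinate was converted. Capitals mark matches on either strand to the CCAAT box (CCAAT) and the GC box (GGGCGG).
Entpd1, downstream start: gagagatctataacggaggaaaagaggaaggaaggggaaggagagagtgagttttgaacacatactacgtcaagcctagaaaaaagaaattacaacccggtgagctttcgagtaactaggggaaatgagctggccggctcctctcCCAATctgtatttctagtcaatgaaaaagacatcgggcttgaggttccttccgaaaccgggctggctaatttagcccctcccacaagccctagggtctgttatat
Adora2b: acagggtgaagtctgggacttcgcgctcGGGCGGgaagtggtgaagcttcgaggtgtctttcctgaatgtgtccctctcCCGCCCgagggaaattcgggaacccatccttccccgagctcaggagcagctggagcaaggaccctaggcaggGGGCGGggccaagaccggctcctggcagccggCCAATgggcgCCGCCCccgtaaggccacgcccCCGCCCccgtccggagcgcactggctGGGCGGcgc
The downstream Entpd1 window has a GC content of 47.2%, with 1 CCAAT box at positions -105 to -101 relative to the start and no GC box. That of the upstream Entpd1 start has a GC content of 62.4%, with CCAAT boxes at -113 to -109 and -81 to -77 and no GC box. The Adora2b window has a GC content of 69.6%, with 1 CCAAT box at positions -67 to -63 and 6 GC boxes. Among 32851 mouse promoter windows of this length, 33.85% hold a CCAAT box and 32.74% a GC box. Letters for AP-1 (TGANTCA, in 6.749% of all windows), STAT6 (TTC and GAA around any 4 bases, 5.854%), CRE (TGACGTCA, 1.546%), PU.1 (GAGGAAGT, 2.441%), the hypoxia response element (ACGTG, 16.57%) and the TATA box (TATAAA, 12.37%) were in neither window. Windows were found for 8 of the 10 genes with 14 starts, and an AP-1 match was present in those of P2rx7 and P2ry14. These matches describe letters in a window and not binding.

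Adora2b, the adenosine receptor of lower affinity, was the other DEG of the set. It was measured at 6.11, 4.89 and 5.03 CPM in shNC (97, 87 and 91 counts) and at 3.91, 3.56 and 2.80 CPM in shTrem2 (76, 69 and 55 counts). Each shTrem2 library was below each shNC library. It fell by 0.60 on the log2 scale (SE 0.188, 95% interval -1.01 to -0.20, adjusted p 0.0136, edgeR), which at 1.52-fold lies just inside the fold criterion. Leaving out shNC replicate 1 gave a log2 fold change of -0.51 (adjusted p 0.0576), and leaving out shTrem2 replicate 3 gave -0.49 (adjusted p 0.05001), so the call rests on those libraries. Zswim7, next to Adora2b on chromosome 11, had a log2 fold change of 0.09 (adjusted p 0.650).

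Adora2a, the adenosine receptor of higher affinity that shares the coupling to cAMP, was the lowest of the detected genes. It was measured at 1.20, 1.63 and 0.829 CPM in shNC (19, 29 and 15 counts) and at 0.617, 1.03 and 0.509 CPM in shTrem2 (12, 20 and 10 counts). The groups overlapped, and the log2 fold change of -0.72 did not pass the test (SE 0.389, 95% interval -1.56 to 0.12, adjusted p 0.129, edgeR). On the deposited FPKM values, which are scaled for depth and transcript length, limma gave -0.35 on log2(FPKM + 1) (adjusted p 0.0481) and -0.92 on log2(FPKM + 0.1) (adjusted p 0.0476), but on log2(FPKM + 1) without a filter on low values the adjusted p was 0.0962. The highest of these FPKM values, 0.87, was in shNC replicate 3, which had the lowest CPM of its group. There 2.2 of the gene's 15 counts were assigned to Adora2a-203 (538 nt), and the part of this library in the limma results was not tested. A difference of the size measured for Adora2b could be neither shown nor left out for Adora2a at these counts.

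Of the other adenosine receptors, Adora1 had 0 counts in all libraries, and Adora3, a receptor that lowers cAMP, was measured at 2.90, 1.97 and 3.26 CPM in shNC and at 4.52, 4.03 and 5.95 CPM in shTrem2. The groups did not overlap, and Adora3 rose by 0.87 (SE 0.230, adjusted p 0.00529, edgeR). Adora3 overlaps Tmigd3 in the annotation, which had a log2 fold change of -0.47 (adjusted p 0.279), and reads of the 2 genes may not be fully separated. Of the summed FPKM of the 4 adenosine receptors, Adora2b held 60.4% ± 5.08 in shNC and 41.8% ± 9.56 in shTrem2, and Adora3 held 27.3% ± 5.50 and 51.8% ± 12.4 (SD, n = 3). Adora3 held the largest share in shTrem2 replicates 1 and 3 and Adora2b in all shNC libraries and in shTrem2 replicate 2. Adora2a held 12.3% ± 3.71 in shNC and 6.40% ± 3.64 in shTrem2.

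Levels of different genes can be compared only per length, on the FPKM scale. In shNC the order was P2ry6 (22.5 ± 1.10 FPKM), P2rx4 (17.6 ± 1.38), P2rx7 (14.5 ± 0.491), P2ry2 (3.80 ± 0.410), Adora2b (3.48 ± 0.442), Entpd1 (1.23 ± 0.206) and Adora2a (0.700 ± 0.175). Only P2ry2 and Adora2b, among neighbours in this order, did not differ beyond their spread. In shTrem2 the order was P2ry6 (28.4 ± 1.77 FPKM), P2rx4 (12.4 ± 0.586), P2rx7 (11.5 ± 0.356), P2ry2 (3.31 ± 0.594), Entpd1 (2.38 ± 0.235), Adora2b (2.23 ± 0.363) and Adora2a (0.333 ± 0.155). Entpd1 thus passed Adora2b in the order of means, although in shTrem2 the libraries of these neighbours overlapped. P2ry6, P2rx4 and P2rx7 were the most abundant in both groups.

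**Figure D3:**
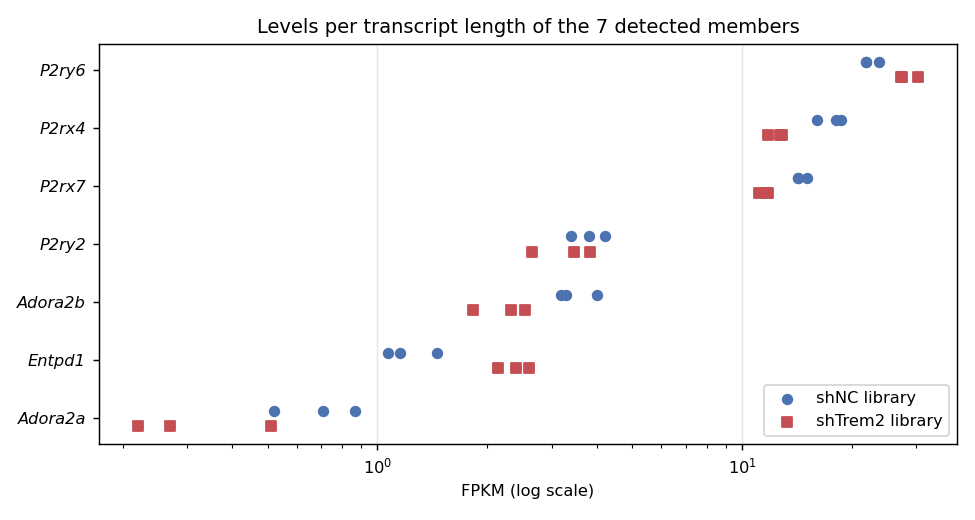
Deposited FPKM values of the 7 detected genes on a log axis, with 1 point per library (circles shNC, squares shTrem2). P2ry6 is highest in both groups (22.5 and 28.4 FPKM on average) and Adora2a lowest (0.700 and 0.333 FPKM).

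Other genes of nucleotide signalling, together with 8 genes of other "find-me" signals, were counted over 9 lists. Of 81 genes found in the tables, 51 were tested, 40 had an adjusted p under 0.05 and 14 were DEGs, 6 higher and 8 lower, beside 57.4% and 21.8% of all tested genes. The median log2 fold change of the 51 was 0.04. Among receptors, none of the 5 other P2X genes was tested: P2rx1 and P2rx2 were not detected, while P2rx3, P2rx5 and P2rx6 had at most 0.553, 0.787 and 0.378 CPM in any library. Of the 5 other P2Y genes, P2ry1, P2ry4, P2ry10 and P2ry13 were not detected, and P2ry10b, a close paralog of P2ry10, averaged 30.7 ± 4.18 CPM over shNC and 30.7 ± 2.49 CPM over shTrem2 (log2 fold change 0.04, adjusted p 0.755, edgeR). Reads of the paralogs may not have been separable.

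Besides Entpd1, the list of ectonucleotidases, NAD-consuming ectoenzymes and related genes was largely below detection. Of 12 genes of this list that were found, 9 were not detected, among them Entpd2, Entpd3, Enpp1, Enpp3, Acp3 and Cd38. Alpl, an alkaline phosphatase that can also free adenosine from AMP, fell from 1.74 ± 0.684 CPM in shNC to 0.189 ± 0.119 CPM in shTrem2 (log2 fold change -3.13, SE 0.509, adjusted p 1.37e-04, edgeR). The shTrem2 libraries held only 5, 5 and 1 counts of Alpl. On the FPKM scale its groups overlapped, with 0.60 in shTrem2 replicate 1 and 0.47 in shNC replicate 3. Bst1, an ADP-ribosyl cyclase, rose by 0.28 (adjusted p 0.00354), and Ada, which turns adenosine into inosine, had a log2 fold change of 0.07 (adjusted p 0.565). None of the 4 NTPDases of intracellular compartments rose. Entpd4 fell by 0.60 (adjusted p 7.25e-06), Entpd6 fell by 0.36 (adjusted p 2.89e-04) and Entpd5 fell by 0.20 (adjusted p 0.0263), while Entpd7 had a log2 fold change of 0.15 (adjusted p 0.231). Entpd4 was thus a DEG in the direction opposite to that of Entpd1, though at 1.52-fold it lay just inside the fold criterion.

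Of the 11 tested genes on the list for nucleotide release, 7 rose and 3 fell at the adjusted p, beside 28.8% and 28.6% of all tested genes. On this list 5 were DEGs, beside 21.8%. Slc17a9, the transporter that loads ATP into vesicles, fell from 31.7 ± 4.47 CPM to 13.3 ± 1.11 CPM (log2 fold change -1.22, SE 0.107, adjusted p 4.76e-07, edgeR). Gja1, the gap junction protein connexin 43, fell by 1.22 (adjusted p 0.00696, edgeR). Its counts were low, at 37, 42 and 33 in shNC and 25, 10 and 18 in shTrem2. Xkr8, counted on this list although it is a scramblase activated by caspases, fell by 0.70 (adjusted p 0.00274, edgeR). On the FPKM scale the Xkr8 groups overlapped, at 1.69, 3.92 and 3.36 in shNC and 1.02, 1.34 and 3.14 in shTrem2. Calhm2 rose by 0.88 (adjusted p 3.70e-05) and Calhm6 by 0.75 (adjusted p 0.0217), both of a family of large-pore channels. Panx1, the channel through which apoptotic cells release ATP, rose by 0.27 (adjusted p 0.0365), under 1.5-fold.

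Of the 9 tested genes of nucleoside uptake and salvage, 3 rose and 4 fell at the adjusted p, against the same 28.8% and 28.6% of all tested genes. DEGs numbered 2, beside 21.8% of all tested genes. The concentrative nucleoside transporter Slc28a2 fell from 3.52 ± 0.487 CPM to 0.976 ± 0.341 CPM (log2 fold change -1.81, adjusted p 9.68e-05, edgeR). Pnp, which splits inosine and guanosine, rose by 0.59 (adjusted p 1.91e-06, edgeR), just inside the fold criterion at 1.51-fold. Of 16 G protein and effector genes, 3 rose and 9 fell at the adjusted p, again beside 28.8% and 28.6%. The 1 DEG among them, beside 21.8% of all tested genes, was Plcb4, a phospholipase C that fell by 0.80 (adjusted p 3.94e-08). Gnas, the G protein through which Adora2a and Adora2b raise cAMP, rose by 0.38 (adjusted p 1.14e-05), under 1.5-fold, and so did Gnai2, of the class that lowers cAMP, by 0.44 (adjusted p 5.16e-06), while Gnai3 of the same class fell by 0.23 (adjusted p 8.12e-04).

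**Figure D4:**
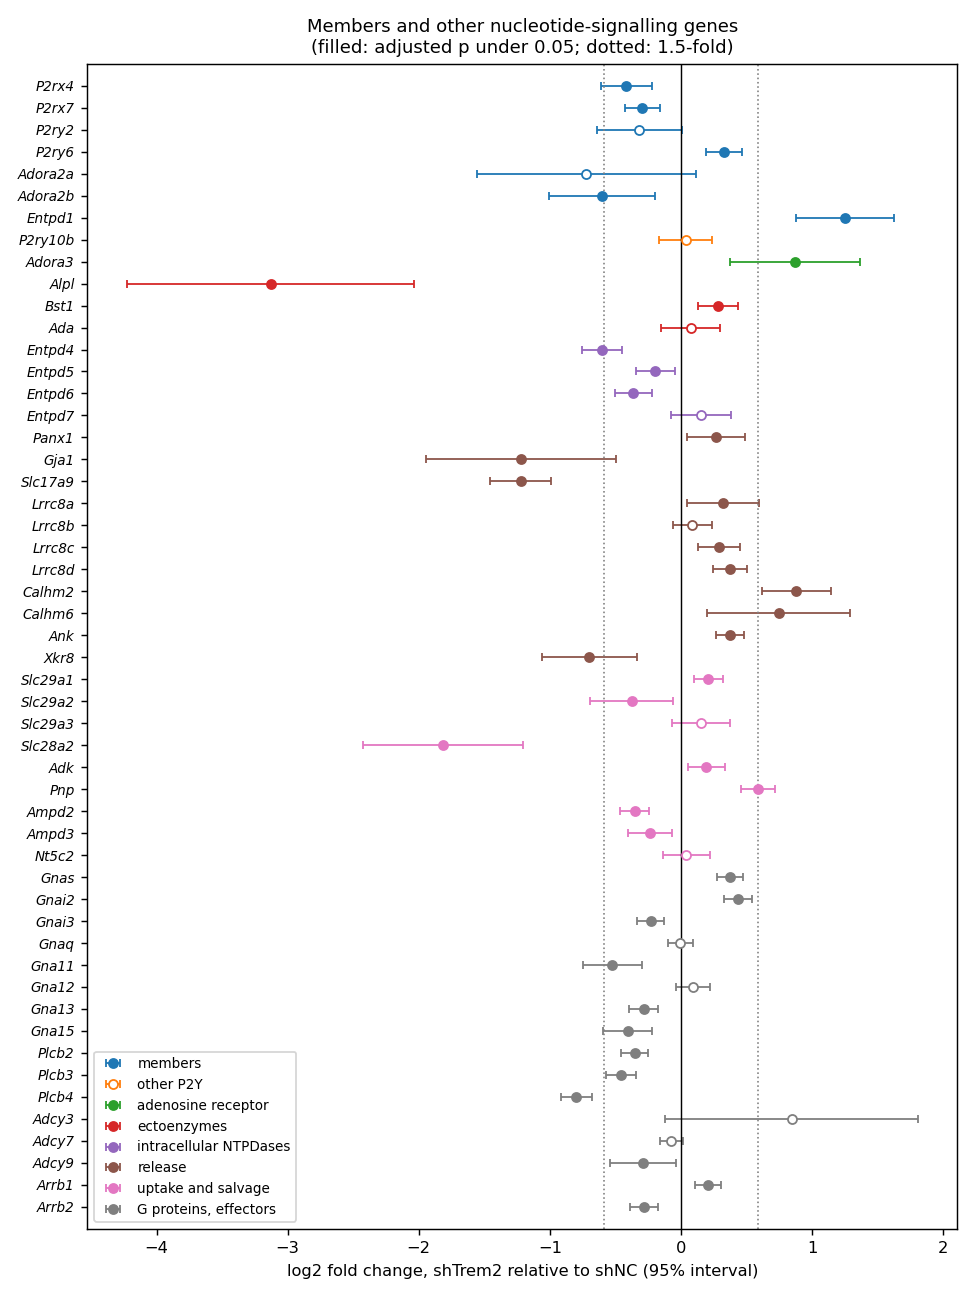
Log2 fold changes of shTrem2 relative to shNC with 95% intervals from edgeR for the 7 tested genes of the set and the other tested genes of nucleotide signalling, coloured by list, without the list of other "find-me" genes. Filled points have an adjusted p under 0.05 and dotted lines mark 1.5-fold: Entpd1 (1.25) is the highest of the points drawn, and Alpl (-3.13), Slc28a2 (-1.81), Slc17a9 (-1.22) and Gja1 (-1.22) are the lowest.

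Across 18 other settings of test, normalization, filter, unit and libraries, the direction of each of the 7 genes held. Entpd1 was a DEG in all 18, with log2 fold changes between 0.61 and 1.37. P2rx4, P2rx7 and P2ry6 passed the adjusted p in all 18 and the fold criterion in none. Adora2b exceeded 1.5-fold in 14 of the 18.

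**Figure D5:**
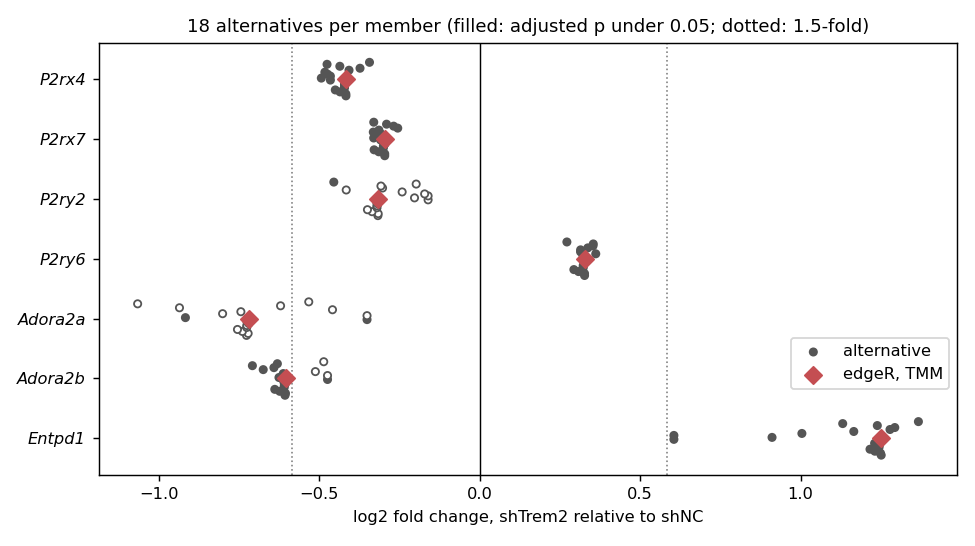
Log2 fold changes of the 7 tested genes under the edgeR test (diamonds) and 18 other settings (circles, filled where the adjusted p was under 0.05), with dotted lines at 1.5-fold. Entpd1 stays above the 1.5-fold line in all settings (0.61 to 1.37), whereas circles of Adora2b (-0.71 to -0.47) and Adora2a (-1.07 to -0.35) fall on both sides of it.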

How the data were processed

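RNA-seq libraries of 3 shNC and 3 shTrem2 replicates, grouped as their labels state, were compared. For read trimming the authors used fastp, for alignment HISAT2 in a strand-aware mode, and for assembly StringTie. The build in the submitters' processing notes is GRCm39, and the counting tool is not given in the sources used here. The authors deposited estimated counts per transcript, of which 79.3% of nonzero values were not whole, and FPKM values per gene. Columns of group means deposited by the authors were not used.

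Estimated counts were summed per symbol and rounded. Rows without a symbol, 0.908% to 1.12% of counts, were left out, and 311 symbols covered several gene identifiers. Counts were tested with edgeR 4.0.16 in R 4.3.3 (TMM, filterByExpr, glmQLFit and glmQLFTest, no covariates), after a check on simulated data. A floor of 3 counts reflects sampling of reads alone, as PCR duplicates are not separate molecules. FPKM values were tested with limma 3.58.1 as an alternative, beside DESeq2 1.42.0, limma-voom, other normalizations, filters and thresholds, an offset for effective length, the replicate number as a block, and each library left out in turn, which for single transcripts was chosen after seeing the data.

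Rows were matched to GENCODE M21 transcripts by the lengths with which their counts returned the FPKM of the gene, with a largest error of 0.369% beyond rounding. Neighbouring genes and promoter windows came from RefSeq tables of GRCm38.p6. The genes, lists and tests were chosen with earlier results of these data known. The text names every gene of the set, up to 6 DEGs of each other list and all genes of lists of 5 or fewer, adjacent genes (not all are reported here), and the 3 genes with the most similar pattern to each DEG. Panx1, Bst1, Ada, Gnas, Gnai2, Gnai3, the marker genes and the undetected examples of longer lists were named after their values were seen. Of the listed symbols, Acpp and Ankh were looked up as Acp3 and Ank.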

Additional observations from a re-analysis of the deposited data

How the results depend on the processing

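Entpd1 stayed a DEG in all 18 alternatives (adjusted p 9.87e-12 to 0.0239). Its log2 fold change was 0.61 on log2(FPKM + 1), 0.91 on log2(FPKM + 0.1) and 1.00 with the effective length offset. The parts of the pseudocount and of transcript length in these values were not tested. Of 126 results of single genes of the set, 120 kept their direction and side of the threshold, 3 became weaker, 3 stronger and none reversed. The number of DEGs in the set (2) was 1 with limma on log2(FPKM + 1), with or without a filter, 1 with FDR under 0.01, 1 with a change over 2-fold, 1 with glmTreat, 3 on log2(FPKM + 0.1), where Adora2a was added, and 5 without a fold threshold, and ranged from 1 to 2 with single libraries left out. Adora2b was weaker on log2(FPKM + 1) without a filter (-0.47, adjusted p 0.0749), with more genes tested, while Adora2a passed on log2(FPKM + 1) (-0.35) and log2(FPKM + 0.1) (-0.92). With single libraries left out, P2ry2 ranged from -0.46 to -0.20 (past the threshold without shTrem2 replicate 3) and Adora2b from -0.71 to -0.49 (adjusted p over 0.05 without shNC replicate 1 or shTrem2 replicate 3). DEGs on the other lists (14) numbered 9 on log2(FPKM + 1) without a filter, 6 over 2-fold, 40 without a fold threshold and 7 with glmTreat, and 11 to 14 with single libraries left out. DEGs over all genes (2951) numbered 1339 over 2-fold, 7763 without a fold threshold and 1515 with glmTreat, and 2789 to 3105 with single libraries left out. The cause of the other moves was not tested.

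The replicate numbers did not pair the libraries, with correlations of the deviations of same-numbered libraries of 0.0062, -0.0044 and 0.0066. With the replicate block there were 2 DEGs in the set, 14 on the other lists and 2911 over all genes. Depth limits Adora2a (10 to 29 counts per library) and the 3 genes that were not detected.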

Other observations

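Genes of other "find-me" pathways were counted beside the nucleotide receptors. Of 6 tested, 3 rose and 2 fell at the adjusted p, beside 28.8% and 28.6% of all tested genes. S1pr1, a receptor for sphingosine-1-phosphate, was at 2.27, 1.01 and 1.05 CPM in shNC and at 4.16, 5.99 and 3.82 CPM in shTrem2, and rose by 1.74 (SE 0.305, adjusted p 2.57e-04, edgeR). Cx3cr1, the fractalkine receptor, rose by 2.05 (adjusted p 7.14e-09). Pla2g6, a phospholipase that releases lysophosphatidylcholine, fell by 0.75 (adjusted p 2.00e-06).

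Over the 6 libraries, the genes with the pattern most like that of Entpd1, by the Euclidean distance of centred log2 CPM among 9548 genes, were Cd300a (distance 0.196), Rcbtb2 (0.226) and Oas1g (0.233). For Adora2b they were Lrrc27 (0.131), Gm16536 (0.131) and Pou6f1 (0.181). The patterns include the difference between groups, so these distances are a description.

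Of the other neighbours in the annotation, Aldh18a1 on the Tctn3 side of Entpd1 had a log2 fold change of 0.44 (adjusted p 0.00149, edgeR) and Cc2d2b on the other side 0.01 (adjusted p 0.978). Specc1 beside Adora2b had 0.27 (adjusted p 2.72e-04), Specc1l beside Adora2a -0.05 (adjusted p 0.540), Ift81 beside P2rx7 0.00 (adjusted p 0.992) and Arhgef17 beside P2ry6 -0.65 (adjusted p 0.209).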
